A study of Homo sapiens with 26 samples.

Results

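The cytosolic heat shock chaperones and their cochaperones were followed in the human melanoma line SK-MEL-28, kept in salubrinal for 72 h or left untreated. Salubrinal blocks the removal of phosphate from eIF2α, a translation initiation factor, which turns on the integrated stress response (ISR); the labels state no dose. The members were the rows of the input RNA files whose symbols belong to the families of Hsp70 and Hsp110 (Hspa, Hsph1), Hsp90 (Hsp90a), small heat shock proteins (Hspb), J proteins (Dnaja, Dnajb, Dnajc), BAG domain proteins (Bag), the chaperonin CCT (Cct) and the heat shock factors Hsf1 and Hsf2. Of 55353 gene rows 90 matched these names. The 4 pseudogene rows among them were left out, as were 6 chaperones of the endoplasmic reticulum (ER) or mitochondria (Hspa5, Hspa9, Dnajb9, Dnajb11, Dnajc3 and Dnajc10), which left 80 members. The families are named as cytosolic, but Hspa13 and several J proteins on the list reside in the ER or in mitochondria.

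Input RNA came from 1 salubrinal library and 1 untreated (control) library, so the input comparison has no replicate check and no test. The other 24 samples were sucrose gradient fractions named polysome, 80S, 60S and 40S, with 3 replicates per fraction and treatment. The labels give cycloheximide at 100 µg/mL for 12 min for all 26 samples, input included. Every title names SK-MEL-28, and since the labels do not tell whether replicates come from separate cultures, the spread behind the p-values may be technical. The input libraries held 10245548 (salubrinal) and 12068784 (control) counts on gene rows. Of 7 melanocytic markers 5 were measured in the input, with Pmel at 13535 (salubrinal) and 16793 (control) counts, while Mlana was at 0 in both and Tyrp1 at 0 (salubrinal) and 5 (control). After scaling, 4 of the 5 were at least 2-fold lower with salubrinal (Pmel, Mitf, Sox10 and Dct), while Tyr was level at a log2 ratio of -0.04. The median log2 ratio of the 5 was -1.02. Input rows carry mouse-style symbols, although the submitters' processing notes list the human build hg19, and the reference behind these rows is not known, so low counts on a row cannot be read as low expression in these human cells.

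Heat shock chaperones keep proteins folded and prevent aggregation. Hsp70 binds short hydrophobic stretches of unfolded proteins in a cycle driven by ATP, J proteins deliver clients to Hsp70 and trigger ATP hydrolysis, and Hsp110 and BAG proteins release the nucleotide. Clients such as kinases and hormone receptors pass on to Hsp90, and actin and tubulin fold inside the CCT ring. When unfolded proteins build up in the cytosol, the transcription factor HSF1 forms trimers, binds heat shock elements and raises many of these genes, a program separate from the ISR, which acts through eIF2α and ATF4.

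The chaperone families as a whole stood level between the salubrinal and the control input. Of the 80 members, 55 had at least 50 counts over both libraries and were taken as measured, and 12 were at 0 in both. Of all 55353 rows, 10614 were measured and 36444 were at 0 in both. The median log2 ratio of salubrinal over control was -0.02 over the 55 measured members, against 0.02 over all 10614 rows with at least 50 counts. Only 1 member, Hspa13, was at least 2-fold higher with salubrinal (1.82% of 55, against 2.75% of all rows), and 2, Hspa2 and Hspa1b, were at least 2-fold lower (3.64%, against 3.8% of all rows), so these shares lay near the background; past 2-fold in either direction were 6.55% of all rows. The log2 ratio lay within 0.25 of 0 for 33 members (60.0%), against 42.1% of all rows. These shares depend on depth: with at least 1000 counts they were 84.2% of 19 members and 49.4% of 2302 rows. Summed over all 80 members, the salubrinal input held 5676 CPM (counts relative to library size, scaled by trimmed means, TMM) and the control input 5554 CPM, a log2 ratio of 0.03 (95% interval 0.02 to 0.05). Sums by family ran from -0.30 for small heat shock proteins to 0.08 for CCT, with BAG at -0.16 and Hsp70 and Hsp110 at -0.145. All intervals given for input ratios are exact binomial intervals, which reflect counting error alone. Directions are relative to the bulk of rows: on library sizes alone the median of all rows moved by 0.93, members moved with it to a median of 0.92, and most signs below 0 turned. The ISR panel stood apart in the same libraries, with all 6 genes (Atf4, Ddit3, Trib3, Asns, Chac1, Sesn2) at least 2-fold higher and a median of 2.22.

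**Figure D1:**
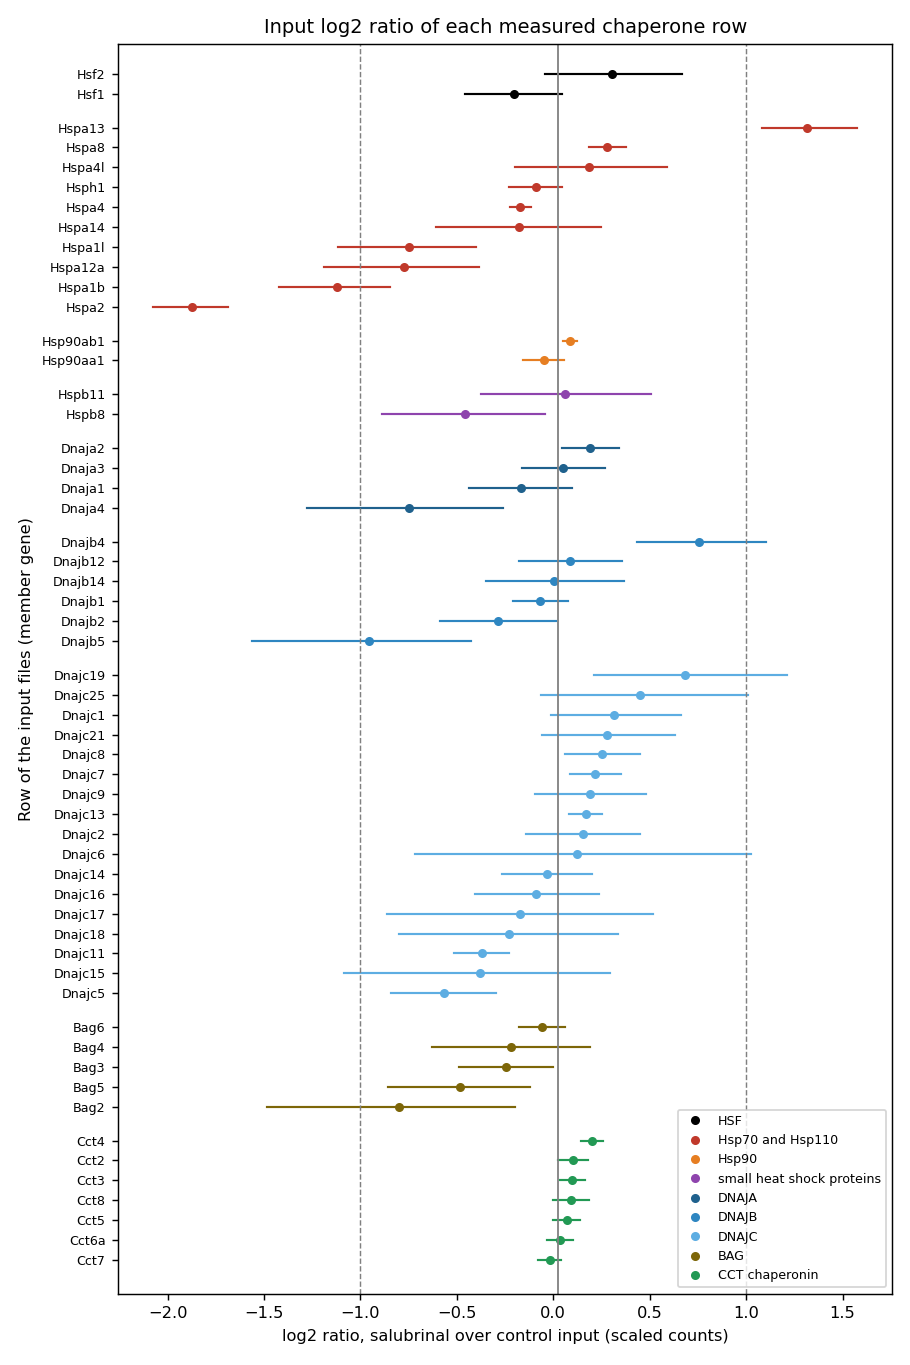
Log2 ratio of salubrinal over control input (x axis) for the 55 measured members (y axis), coloured by family, each from 1 library per treatment. Bars are exact 95% intervals for counting error, the solid line is the median of all rows (0.02) and dashed lines mark 2-fold; Hspa13 lies beyond the upper line and Hspa2 and Hspa1b beyond the lower one, while the CCT rows lie between -0.02 and 0.20.

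The heat shock factors differed little between the libraries. Hsf1, the master regulator of the heat shock response, had 319 counts with salubrinal and 226 without, a log2 ratio of -0.21 (-0.46 to 0.04). Hsf2, a related factor that can form mixed trimers with HSF1, had 204 and 101 counts with and without salubrinal, a log2 ratio of 0.31 (-0.04 to 0.67). Both intervals include the median of all rows.

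The element that HSF1 binds is made of inverted repeats of GAA, and its 3-unit form was searched in human promoters as GAA, TTC and GAA with any 2 bases between neighbouring units, or as the reverse complement of this string, which together cover both strands. RefSeq promoter sequences (GRCh38.p14) were found for 67 of the 80 members, and the 250 bases before each listed gene start were searched. The 3-unit element was found for 4 of the 67 (5.97%), HSPA8, HSP90AA1, HSP90AB1 and DNAJB6, against 0.557% of all 27305 genes in the table. The 2-unit form, GAANNTTC or TTCNNGAA, which is part of every 3-unit match, was found for 21 members (31.3%) and for 14% of all genes. A match is a description of the letters and not evidence of binding. DNAJB1, HSPA1A and HSPA1B hold the 2-unit form but no exact 3-unit match, so lack of a match does not mean lack of a heat shock element. The stretches around the exact 3-unit matches of the 3 measured members are shown, with the match in capitals and written 5′ to 3′ on the gene's strand.
HSPA8: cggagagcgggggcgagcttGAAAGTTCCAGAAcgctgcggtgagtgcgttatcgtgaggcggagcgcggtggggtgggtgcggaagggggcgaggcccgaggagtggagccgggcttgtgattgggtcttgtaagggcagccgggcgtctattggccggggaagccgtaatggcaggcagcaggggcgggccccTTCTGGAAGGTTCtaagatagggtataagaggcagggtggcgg
HSP90AA1: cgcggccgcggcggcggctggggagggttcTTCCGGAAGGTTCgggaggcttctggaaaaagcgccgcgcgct
HSP90AB1: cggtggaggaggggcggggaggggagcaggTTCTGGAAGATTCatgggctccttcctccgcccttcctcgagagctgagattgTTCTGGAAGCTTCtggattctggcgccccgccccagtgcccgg
These stretches lie at chr11:123062149-123062386 (minus strand), chr14:102087090-102087162 (minus strand) and chr6:44247748-44247873 (plus strand). HSPA8 and HSP90AB1 each hold 2 copies, and HSP90AA1 holds 1. The input log2 ratios of the 3 rows were 0.28 for Hspa8, -0.05 for Hsp90aa1 and 0.09 for Hsp90ab1, and none of them reached 2-fold. Dnajb6 had only 10 counts with salubrinal and 2 without.

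The Hsp70 and Hsp110 family had the widest spread of the 9 families, with log2 ratios from -1.87 to 1.32 over 10 measured members of 12 and an SD of 0.87 between members, against 0.54 between all rows. Hspa8, the constitutive Hsp70 of the cytosol, which also strips clathrin from vesicles, had 2602 counts with salubrinal and 1315 without. In CPM these were 183 and 151, a log2 ratio of 0.28 (0.18 to 0.38), whose interval lies above the median of all rows. Hspa1b, a gene of the stress-inducible Hsp70, went the other way with 176 counts (12.4 CPM) with salubrinal and 237 (27.2 CPM) without it, which is a log2 ratio of -1.12 (-1.42 to -0.85). Its near-identical neighbour Hspa1a had 2 and 3 counts in the salubrinal and control input, too few for a ratio.

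Hspa13, a microsome-bound relative of Hsp70 that lacks the usual peptide-binding domain, had the highest ratio of all members. It had 690 counts (48.6 CPM) with salubrinal and 169 (19.4 CPM) without it, which is a log2 ratio of 1.32 (1.08 to 1.58) and a fold of 2.49, and ranked 133 from the top among the 10614 rows. Hspa2, an Hsp70 known for its high level in testis, had the lowest ratio, with 322 counts (22.7 CPM) with salubrinal against 727 (83.5 CPM) without it, which is a log2 ratio of -1.87 (-2.07 to -1.69). The salubrinal level of Hspa2 was thus 0.273 of the control level. Hspa1l, another Hsp70 gene known from testis, stood at -0.75 (-1.11 to -0.40), from 132 and 137 counts with and without salubrinal. Hspa12a, a distant relative, stood at -0.77 (-1.19 to -0.39). Rows of Hspa1a, Hspa1b, Hspa1l, Hspa2 and Hspa8 share long stretches of sequence, so a read of one may have been placed on another or on none, and their ratios are uncertain to that extent.

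The promoters of the members that lay furthest apart, and of the human HSPA1A and HSPA1B pair, are shown as the 250 bases before the gene start, with 2-unit elements in capitals.
HSPA13: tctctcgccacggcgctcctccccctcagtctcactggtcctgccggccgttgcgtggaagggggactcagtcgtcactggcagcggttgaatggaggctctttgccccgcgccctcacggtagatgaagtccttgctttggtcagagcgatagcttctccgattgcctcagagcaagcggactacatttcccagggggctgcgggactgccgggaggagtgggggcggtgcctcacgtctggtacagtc
HSPA2: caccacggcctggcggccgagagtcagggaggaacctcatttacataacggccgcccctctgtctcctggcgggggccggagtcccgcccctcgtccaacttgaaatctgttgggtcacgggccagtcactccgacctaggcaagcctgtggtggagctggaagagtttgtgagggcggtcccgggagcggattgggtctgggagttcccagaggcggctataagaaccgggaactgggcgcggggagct
HSPA1A: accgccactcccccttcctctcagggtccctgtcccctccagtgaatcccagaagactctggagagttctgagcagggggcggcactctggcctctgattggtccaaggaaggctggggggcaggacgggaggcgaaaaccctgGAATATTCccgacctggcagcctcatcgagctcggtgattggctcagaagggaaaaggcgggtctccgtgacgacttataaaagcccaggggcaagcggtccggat
HSPA1B: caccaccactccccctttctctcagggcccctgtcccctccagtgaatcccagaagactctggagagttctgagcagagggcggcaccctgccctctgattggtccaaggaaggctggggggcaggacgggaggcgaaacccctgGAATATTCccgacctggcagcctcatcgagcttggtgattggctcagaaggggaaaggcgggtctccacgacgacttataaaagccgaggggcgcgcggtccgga
They lie at chr21:14383147-14383396 (minus strand), chr14:64540491-64540740, chr6:31815293-31815542 and chr6:31827488-31827737 (all 3 plus strand) of GRCh38.p14. HSPA1A and HSPA1B share 235 of 249 aligned bases (94.4%), and each holds the 2-unit element GAATATTC once. The letters of the 2-unit element are not in the windows of HSPA13 and HSPA2.

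The Hsp110 members, which act as exchange factors for Hsp70, lay close to the median. Hspa4 had 6882 counts with salubrinal and 4751 without, a log2 ratio of -0.17 (-0.22 to -0.12). Its depth gave an interval that lies below the median of all rows, although the shift is small. The stress-inducible Hsph1 stood at -0.09 (-0.23 to 0.05), from 1098 and 717 counts in the salubrinal and control input. Hspa4l stood at 0.19 (-0.20 to 0.59). Hspa14, an Hsp70 partner at the ribosome and not an Hsp110, stood at -0.18 (-0.61 to 0.25). Both of these intervals include the median.

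Both Hsp90 rows were level. Hsp90ab1, the constitutive cytosolic form and the row with the most counts of all members, had 17460 counts (1230 CPM) with salubrinal and 10096 (1159 CPM) without it, which is a log2 ratio of 0.09 (0.05 to 0.12). The inducible form Hsp90aa1 had 1824 counts (128 CPM) with salubrinal and 1158 (133 CPM) without it, which is a log2 ratio of -0.05 (-0.16 to 0.06). Of the 18 measured Hsp90 cochaperones outside the member list, 0 were 2-fold apart, and their median was -0.16. Among them the highest were Rpap3 at 0.37 and Sugt1 at 0.32 and the lowest were Fkbp8 at -0.60 and the phosphatase gene Ppp5c at -0.51.

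Of the small heat shock proteins, which hold unfolded proteins without ATP, 2 of 8 rows were measured, beside 10614 of all 55353 rows. At 0 in both libraries were 5 of the 8, beside 36444 of all rows. Hspb1 (Hsp27) had 15 counts with salubrinal and 22 without. Hspb8, which works with Bag3 in the disposal of aggregates, had 105 and 89 counts with and without salubrinal, a log2 ratio of -0.46 (-0.89 to -0.04). Hspb11, which despite its name is a component of intraflagellar transport, stood at 0.06 (-0.38 to 0.51).

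**Figure D2:**
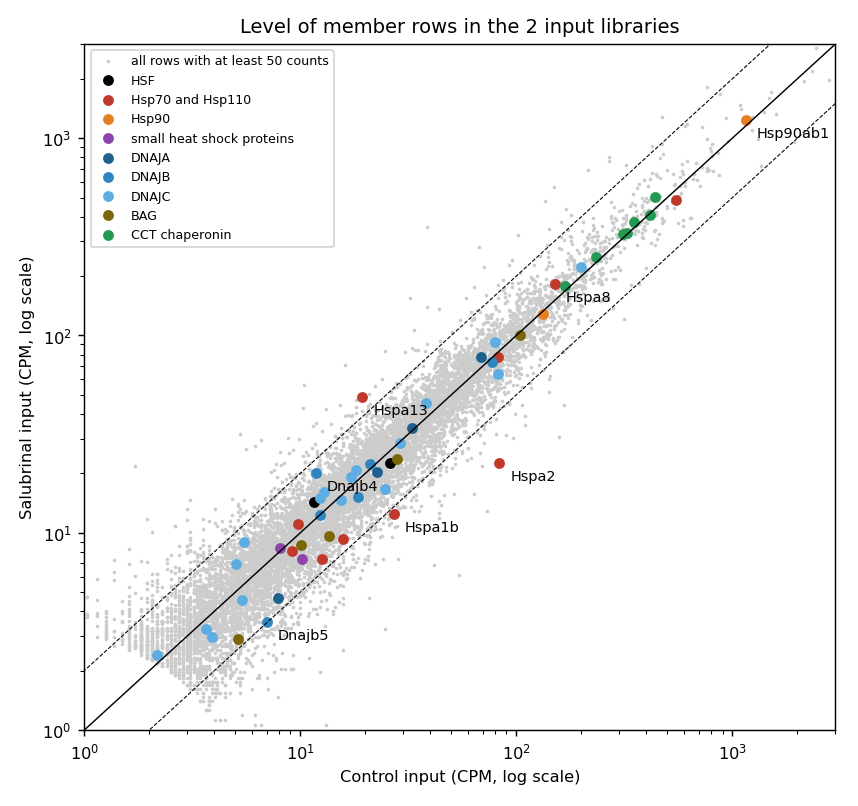
Salubrinal input (y axis, CPM, log scale) against control input (x axis, CPM, log scale), with grey points for rows with at least 50 counts within the axis range and coloured points for members by family. The solid line marks equal levels and dashed lines 2-fold; Hspa13 (48.6 and 19.4 CPM), Hspa2 (22.7 and 83.5 CPM) and Hspa1b (12.4 and 27.2 CPM) lie outside the dashed lines.

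J proteins were the largest group, with 41 rows of which 27 were measured. None reached 2-fold, 15 lay above 0 and 12 below, and the median was 0.05. The highest were Dnajb4 at 0.75 (0.43 to 1.10), from 285 counts with salubrinal and 103 without, and Dnajc19, a part of the mitochondrial import motor, at 0.68 (0.21 to 1.21), from 127 and 48. These are the J proteins whose intervals lay furthest above the median of all rows. Dnajc25 at 0.45 (-0.06 to 1.01), the ER protein gene Dnajc1 at 0.32, the ribosome assembly gene Dnajc21 at 0.28 and the spliceosome-associated Dnajc8 at 0.25 came next.

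At the low end stood Dnajb5 at -0.96 (-1.56 to -0.43), from 50 counts with salubrinal and 61 without. Dnaja4 followed at -0.75 (-1.28 to -0.26), from 66 and 69 counts. Dnajc5, which encodes the vesicle protein CSPα, stood at -0.57 (-0.84 to -0.30), from 236 and 215 counts. All 3 intervals lie below the median of all rows. Dnajc15 and Dnajc11, J proteins of mitochondria, stood at -0.38 (-1.09 to 0.30) and -0.37 (-0.51 to -0.23), and Dnajb2 at -0.28 (-0.59 to 0.02).

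Of the 5 J protein rows with at least 1000 counts, Dnajc11 is given above and the other 4 had log2 ratios from -0.07 to 0.22. Dnajb1, the classical Hsp40 and a heat shock target, had 1045 counts (73.6 CPM) with salubrinal and 672 (77.2 CPM) without it, which is a log2 ratio of -0.07 (-0.21 to 0.07). Dnaja2, a general partner of Hsp70, stood at 0.19 (0.05 to 0.34). Dnajc13, which acts on endosomes, stood at 0.17 (0.08 to 0.25), from 3173 counts in the salubrinal and 1732 in the control input. Dnajc7, which binds both Hsp70 and Hsp90, stood at 0.22 (0.08 to 0.35).

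The BAG proteins, nucleotide exchange factors that link Hsp70 to other machines, had log2 ratios below 0 for all 5 measured members, with a median of -0.24, although all 5 turned positive on library sizes alone (0.10 to 0.88) while staying below the shifted median of all rows (0.95). Bag6, which guards membrane proteins before insertion, had 1422 counts with salubrinal and 909 without, a log2 ratio of -0.06 (-0.18 to 0.06). Bag3, a heat shock target that directs aggregates to autophagy, had 334 and 243 counts, a log2 ratio of -0.24 (-0.49 to -0.0015). Bag4 stood at -0.22 (-0.63 to 0.19), Bag5 at -0.48 (-0.86 to -0.12) and Bag2, an inhibitor of the ubiquitin ligase CHIP, at -0.80 (-1.49 to -0.20), the last from 41 counts with salubrinal and 45 without. Bag1 had 13 counts in each. None was 2-fold apart, and summed over the family the ratio was -0.16 (-0.26 to -0.06). Of 5 measured Hsp70 regulators outside the member list, 1 was 2-fold lower, Sgta at -1.08 (45 and 60 counts), and Stub1, the gene of CHIP, stood at -0.74. St13 at 0.03 and Tomm34 at 0.42 were the highest.

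The CCT subunits stood together. All 7 measured rows had log2 ratios between -0.02 and 0.20, with a median of 0.09 and an SD of 0.07 between subunits, against an SD of 0.45 between all 2302 rows with at least 1000 counts, whose median was 0.08. Cct4 was the highest, with 7162 counts (504 CPM) with salubrinal and 3826 (439 CPM) without it, which is a log2 ratio of 0.20 (0.14 to 0.26). Cct7 was the lowest, with 5816 counts (410 CPM) with salubrinal and 3616 (415 CPM) without it, which is a log2 ratio of -0.02 (-0.08 to 0.04). Cct2, Cct3, Cct8, Cct5 and Cct6a lay between them at 0.10, 0.10, 0.09, 0.07 and 0.03. The remaining subunit of the ring is encoded by Tcp1, which the names of the rule do not take in; it stood at 0.08 (0.01 to 0.15) and is named here after its value was seen. Cct6b, a testis form, had 13 counts in the salubrinal and 8 in the control input, and Cct8l1 had 0. A list of 10 genes held Tcp1, prefoldin subunits, which hand actin and tubulin to CCT, the prefoldin-like Pdrg1 and Uxt, and the phosducin-like Pdcl3. Of these 0 were 2-fold apart; the lowest were Pdrg1 at -0.24 and Pdcl3 at -0.22 and the highest the prefoldin subunits Vbp1 at 0.35 and Pfdn4 at 0.41.

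The chaperones of the ER and mitochondria that the rule leaves out had a median of 0.44 over 6 rows, against -0.02 over the measured members, with 1 at least 2-fold higher and 5 above 0. Dnajb9, a J protein of the ER, stood at 1.42 (1.06 to 1.83), from 314 counts with salubrinal and 71 without. Hspa9, the mitochondrial Hsp70, stood at 0.79 (0.74 to 0.85) and Hspa5 (BiP), the ER Hsp70, at 0.57 (0.52 to 0.63), each with an interval above that of Hspa8. Dnajc10 at 0.32 (0.20 to 0.44), Dnajb11 at 0.09 (-0.05 to 0.23) and Dnajc3 at -0.33 (-0.59 to -0.07) made up the rest.

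**Figure D3:**
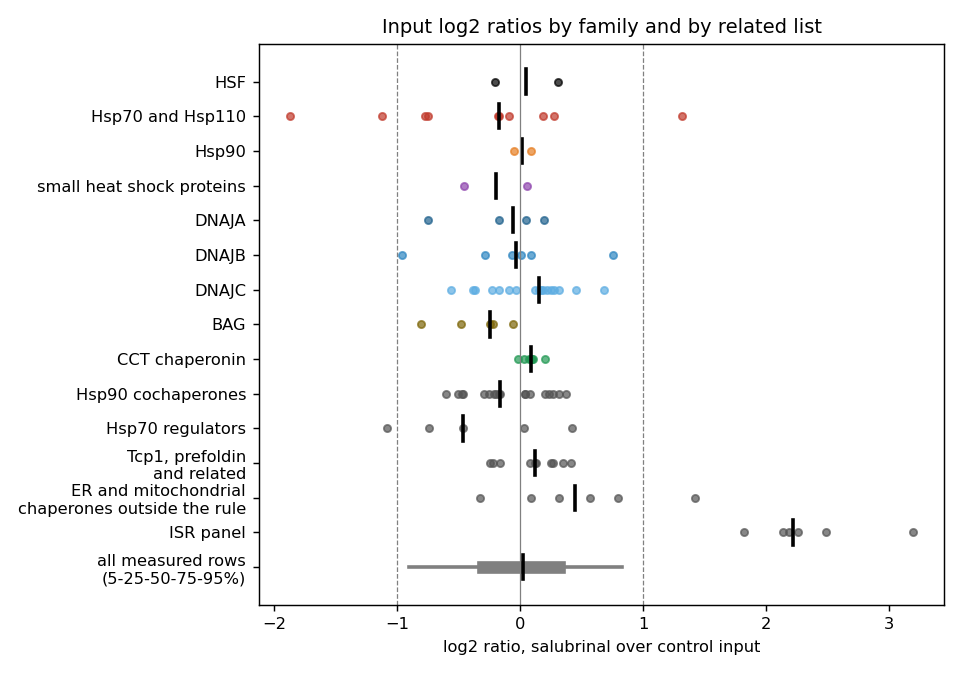
Log2 ratio of salubrinal over control input (x axis) for measured rows of each member family (colours) and of related lists (grey points), with black bars at the medians. The lowest line gives all 10614 rows, with the thick part from the 25th to the 75th percentile and the thin part from the 5th to the 95th; CCT rows cluster at a median of 0.09, Hsp70 and Hsp110 rows spread from -1.87 to 1.32, and ISR panel genes have a median of 2.22.

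In the gradient fractions, where the design compares RNA held by ribosomes after salubrinal with that in control cells, the chaperone rows were nearly empty. The files as a whole were shallow, with 873 to 23714 counts outside ribosomal RNA rows each. Low counts of members therefore cannot be read as absence from ribosomes. The share of empty rows over all genes was not computed. The fraction files use human symbols, and 79 of the 80 members have a row. Of these, 38 were at 0 in all 24 files, 30 had 1 to 9 counts in total and 11 had 10 or more. Together they held 303 counts, 76 in salubrinal and 227 in control files, which is 0.104% of the 290380 counts outside ribosomal RNA rows. The 2 sides differed in depth. Summed by replicate, members held 0.05, 0.13 and 0.09% of these counts in the salubrinal libraries. In the control libraries they held 0.14, 0.11 and 0.09%, so the shares overlapped. HSP90AB1 had 3 counts over the salubrinal and 7 over the control files, and HSPA8 had 4 and 6. HSPA13, HSPA2 and HSPA1B, the rows furthest apart in the input, had 0 in every file.

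No member had enough counts to be tested in any single fraction. The share of tested rows called by edgeR's quasi-likelihood test was 3.73% of 241 in polysome, 12.7% of 213 in 80S, 9.83% of 234 in 60S and 8% of 225 in 40S files, and none of these rows was a member. DESeq2, run on every row with any count, took in 28, 23, 23 and 21 members in the same order. It called 0 of them, with 0 at an unadjusted p under 0.05. Its default filter on mean count can leave low rows without an adjusted p, and how many members kept one was not counted. Of all 6044, 5973, 6027 and 6021 rows it called 0, so nothing about the members follows from this. Earlier work on these data found that the 4 files of a replicate hold the same counts outside ribosomal RNA within sampling noise. The 4 fractions are therefore not 4 separate checks. Per file these counts ran from 2464 to 2628 in salubrinal replicate 1 and from 23160 to 23714 in control replicate 3. In control replicates 1 and 2 they ran from 5705 to 22017 and from 5526 to 21295, so that finding does not hold for these replicates as titled. The sums used here keep the titled numbers and may mix these replicates. With control 40S replicates 1 and 2 exchanged, 52 of 913 summed rows were called, and 0 members. With the 4 files of a treatment and replicate number summed, 2 members were tested, among 856 rows of which 10.4% were called.

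Those 2 rows did not pass. BAG2 had 2, 1 and 20 counts in the salubrinal libraries and 18, 8 and 24 in the control libraries. Treated and control counts overlapped, and salubrinal replicate 3 held nearly all the treated counts. The log2 fold change was 0.34 ± 0.43 (SE; edgeR adjusted p = 0.732). DNAJB7, an intronless J protein gene, had 0, 0 and 14 counts in salubrinal and 12, 7 and 15 in control libraries, with a log2 fold change of 0.15 ± 0.51 (edgeR adjusted p = 0.932). The libraries differed widely in depth, with 10158, 3768 and 73598 counts outside ribosomal RNA in the summed salubrinal libraries and 70883, 38230 and 93743 in the control ones. DNAJB7 had 0 counts in both input libraries.

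For 6 members a gene that overlaps them by RefSeq position had a row with at least 24 counts over the 24 files. THAP3 held 246 counts where DNAJC11 held 12, FAM149B1 held 252 where DNAJC9 held 9, and ORMDL2 held 132 where DNAJC14 held 13. CNP (75) overlaps DNAJC7 (4), PMPCB (49) overlaps DNAJC2 (17) and APOM (35) overlaps BAG6 (3). These pairs are named after their values were seen. The labels do not state the strand setting of the counting, so reads of overlapping genes cannot be told apart.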

How the data were processed

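Input RNA and gradient fractions of SK-MEL-28 cells were analysed as read counts per gene row, which the authors deposited without normalization. A TruSeq stranded kit for total RNA was used, per the labels' protocols. The submitters' processing notes list HTSeq 0.5.3p3, STAR and build hg19. Rows that name no gene were left out; gene rows took up 7.06% (salubrinal) and 5.94% (control) of all input counts. Samples were grouped by title.

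For the input, log2 ratios are of TMM-scaled counts (edgeR 4.0.16, R 4.3.3) with a prior count of 2, for rows with at least 50 counts over both libraries. The count of a row sets its precision: the median width of the 95% interval was 1.10 on the log2 scale for 12 members with at most 200 counts, 0.60 for 24 with up to 1000 and 0.19 for 19 above. Fractions were tested with edgeR (filterByExpr, TMM, quasi-likelihood, Benjamini-Hochberg threshold 0.05 over all tested rows), 3 against 3. Each standard error was derived from the fold change and its p. The input ratios were checked on simulated counts with counting error alone. The test on summed fractions was checked on simulated counts with a fixed spread between libraries. Single-fraction tests were not simulated. Human counterparts of the input rows are the same symbols in capitals. Motifs were searched in the 250 bases before RefSeq gene starts; protein sequences and the bases after the start were not used here.

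Named input rows are all measured members outside the J proteins, the 6 highest and 6 lowest J proteins and those with at least 1000 counts. Some members with too few counts are named with their counts. The ISR panel, the melanocytic markers and the left-out chaperones of the ER and mitochondria are named in full. Of each other list the 2 highest and 2 lowest are named, and Tcp1. The members and lists were chosen with earlier results of these data known. Alternatives were other scalings, prior counts, count minimums and filters, DESeq2 1.42.0, a replicate block and leaving out each replicate.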

Additional observations from a re-analysis of the deposited data

How the results depend on the processing

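The input comparison depended on the scaling. On the library size of gene rows alone the median of all rows moved by 0.93, the median over members became 0.92, and 22 of 55 members passed 2-fold upwards and 0 downwards, beside 4830 and 30 of all 10614 rows. Relative to the median of all rows under that scaling the members' median lay at -0.03, with 1 member 2-fold above it and 2 below, against -0.04, 1 and 2 with TMM. Of gene-row counts, 12.8% (salubrinal) and 56.7% (control) lay on the row CT010467.1. RLE and upper-quartile factors, a prior count of 0.5 and a minimum of 200 counts left the counts at 1 and 2; a minimum of 10 counts gave 2 higher and 3 lower. No member that was 2-fold apart changed sign under any of the 6 alternatives.

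In the fractions 0 members were called under all 61 alternatives, edgeR and DESeq2 alike, but 21 of the 61 called no row of any kind, and most others tested 0 to 2 members. In the summed comparison edgeR without a filter tested 41 members, with 1 at an unadjusted p under 0.05, beside 578 of 10224 rows. Leaving out each replicate gave 0 in every comparison. With the replicate number as a block 0 members were called; 29 of 856 rows were called, against 89 without the block. Correlations of deviations between same-numbered libraries were 0.02, 0.06 and 0.15 over 1288 rows. Differently numbered libraries had -0.116 to 0.024, and the same-numbered value was the highest for each control replicate. Whether same-numbered libraries are paired was not tested. Exchanging control 40S replicates 1 and 2, as their file names number them, gave 0 members and 52 called rows of 913.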

Other observations

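Grouped by what the members are known for, rather than by family, the input gave median log2 ratios from -0.16 to 0.05. These groups were drawn up after the values were seen. Of 12 members known as heat-inducible in many cell types, 10 were measured, with a median log2 ratio of -0.08, 3 above 0 and 7 below, and 1 (Hspa1b) at least 2-fold lower. Their ratios ran from -1.12 to 0.75, with 3 intervals below the median of all rows and 2 above it. Of all 10614 measured rows, 5524 lay above 0 and 5090 below, and 3.8% were at least 2-fold lower. The intervals of 2572 of these rows lay below the median and those of 2497 above it. The 8 members that reside in the ER had a median of 0.05, with Hspa13 at 1.32 and the other ones between -0.23 and 0.45. Of 7 mitochondrial members 4 were measured, with 2 above 0 and 2 below, from Dnajc15 at -0.38 to Dnajc19 at 0.68.

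The pseudogene rows that the naming rule leaves out had ratios near those of the rows they are named for. Cct3-ps1 had 1081 counts with salubrinal and 602 without, a log2 ratio of 0.14 (-0.01 to 0.29), beside 0.10 for Cct3. Dnajc19-ps had 89 and 29 counts, a ratio of 0.88 (0.29 to 1.57), beside 0.68 for Dnajc19. Hspa9-ps1 had 1527 and 572 counts, a ratio of 0.71 (0.57 to 0.85), beside 0.79 for Hspa9, and Dnaja1-ps had 4 and 3 counts. How reads were divided between these pairs was not tested.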
